A study of Danio rerio with 6 samples.

Results

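The genes described here are 5 cadherins, cdh17, cdh1, cdh2, cdh6 and cdh11, and the adhesion gene epcam. Each symbol, compared without regard to case, matched 1 row of the deposited table, so 6 of its 31953 genes are members, and all 6 passed the filter on low counts. The study used adult zebrafish (Danio rerio) carrying the transgene Tg(slc12a3:mCherry), in which regulatory sequence of the sodium-chloride cotransporter gene slc12a3 drives a red fluorescent protein in distal late (DL) segments of the adult kidney, the mesonephros. The 3 DL libraries were made from mCh+ segments dissected by hand, and the 3 rest libraries from the mCh- remainder of the organ; both groups carry the transgene and neither had a treatment. The labels do not say whether libraries came from separate or pooled animals, so p-values cover the spread of these libraries alone, and that spread may be technical.

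Cadherins are membrane proteins that bind calcium and hold like cells together through their outer domains. Classical cadherins such as cdh1 (E-cadherin), cdh2 (N-cadherin), cdh6 (K-cadherin) and cdh11 bind catenins inside the cell, which tie the junction to actin. The protein of cdh17 has a short inner tail and does not work through that catenin link in mammals, where it is known from liver and intestine; in zebrafish embryos cdh17 is a widely used marker of the pronephric tubules and duct. In the mammalian nephron, E-cadherin is best known from distal tubules and collecting ducts, N-cadherin from proximal tubules and K-cadherin from the forming nephron, and cadherin 11 is known from mesenchyme. EpCAM is not a cadherin; it is an epithelial surface protein that associates with claudin 7.

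Total counts per library were between 9320756 and 22776825. The reporter gene slc12a3 stood at 251, 905 and 32.9 CPM (counts per 1000000 counts of the TMM-scaled library) in DL replicates 1 to 3, against 41.9, 30.4 and 43.0 CPM in rest replicates 1 to 3. In that gene, which marks the segment, the library labelled DL replicate 3 therefore lay inside the range of the rest libraries, and the fold changes of the member genes, the medians of the gene lists and the calls are given with and without it. A second split crossed the groups, since the TMM scaling factors were 0.52 in DL replicate 1 and 0.53 in rest replicate 3, while the other libraries had 1.14 to 1.80. The summed CPM of 6 distal tubule markers, slc12a3 included, was 683, 1348 and 137 in DL and 123, 96.9 and 80.6 in the rest. Because these are bulk samples, fewer cells of a type and less RNA per cell cannot be told apart.

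The genes cdh17, cdh1 and epcam had higher mean levels in DL libraries than in rest libraries, and cdh2, cdh6 and cdh11 had lower ones. The ratio of mean CPM, DL over rest, was 6.28 for cdh17, 4.93 for epcam, 3.60 for cdh1, 0.682 for cdh11, 0.465 for cdh2 and 0.253 for cdh6. None of the 6 passed the quasi-likelihood test of edgeR after adjustment over all genes, which called 11 of 17083 genes higher (0.0644%) and 0 lower (0%). Before adjustment, a p under 0.05 was reached by 3 member genes with higher levels, against 4.09% of all genes, and by 2 with lower levels, against 2.73%. DESeq2 called cdh17, cdh1 and epcam higher, where it called 1.22% of 19225 genes higher and 0.411% lower, and limma-voom called none, where it called 0.211% higher and 0% lower. Every DL library stood above every rest library for 2 member genes, against 6.82% of all genes, and below for another 2, against 6.28%.

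The tubule marker cdh17 was highest in DL replicates 1 and 2. It had 1666, 2379 and 560.0 CPM in DL replicates 1 to 3, against 434, 142 and 157 CPM in rest replicates 1 to 3. The groups did not overlap, but the gap was narrow, with the lowest DL library, the one labelled DL replicate 3, at 1.29 times the highest rest library. Its log2 fold change was 2.65 ± 0.74 (SE; edgeR adjusted p = 0.306), and DESeq2 gave 2.66 ± 0.64 with an adjusted p of 0.00432. Without the library labelled DL replicate 3 the values were 3.08 ± 0.70 in edgeR (adjusted p = 0.153) and 3.07 ± 0.63 in DESeq2 (adjusted p = 0.000171). Leaving out rest replicate 1, the highest rest library for cdh17, gave 3.37 in edgeR. Without the library labelled DL replicate 3 edgeR called no member, where it called 0.275% of genes higher and 0.0108% lower, and DESeq2 called cdh17 alone, where it called 1.68% higher and 2.16% lower. The order of the DL libraries for cdh17, with replicate 2 highest and the one labelled replicate 3 lowest, was also that of slc12a3. The summed distal tubule markers had that order too, but slc12a3 is part of that sum, so these are not separate agreements. How far the make-up of the dissected tissue takes part in the cdh17 values was not tested.

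The E-cadherin gene cdh1, which codes for the main cadherin of epithelial junctions, had nearly level TMM-scaled values across the DL libraries. They were 390.2, 424 and 395 CPM in DL replicates 1 to 3, against 132, 40.9 and 164 CPM in rest replicates 1 to 3. The highest DL library stood at 1.09 times the lowest, whereas the rest libraries spanned 4.003 times, and the lowest DL library was 2.38 times the highest rest library. The log2 fold change was 1.85 ± 0.57 (edgeR adjusted p = 0.386; DESeq2 adjusted p = 0.0478). Leaving out the library labelled DL replicate 3 gave 1.90 ± 0.61 in edgeR (adjusted p = 0.356) and ended the DESeq2 call (adjusted p = 0.0698). In contrast to cdh17, the library labelled DL replicate 3 was level with the other DL libraries for cdh1.

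The adhesion gene epcam was highest in the library labelled DL replicate 3, where cdh17 was lowest among the DL libraries. It had 92.7, 254 and 613 CPM in DL replicates 1 to 3, against 57.9, 42.3 and 94.5 CPM in rest replicates 1 to 3. The groups overlapped, since DL replicate 1 lay just below rest replicate 3. The log2 fold change was 2.30 ± 0.67 (edgeR adjusted p = 0.348; DESeq2 adjusted p = 0.0326). Without the library labelled DL replicate 3 it was 1.47 ± 0.58 (edgeR adjusted p = 0.444), and the DESeq2 call ended (adjusted p = 0.209). That library also held the highest summed CPM of 8 multiciliated cell markers, 222, where DL replicates 1 and 2 had 180 and 149 and the rest libraries 59.5 to 172. It was likewise highest for 7 erythroid markers, at 709, where DL replicates 1 and 2 had 32.5 and 36.1. Rest replicates 1 to 3 had 100.2, 577 and 361, and rest replicate 2, with 577, had the lowest epcam, 42.3 CPM. The library labelled DL replicate 3 was narrowly highest for endothelial markers (579, against 511 to 567 in the rest), of which 9 of 10 had negative fold changes. It also had the highest sum of the adrenal and chromaffin list (61.5, against 11.2 to 39.5 in the rest). In that list, however, TH and DBH were at 0 in every DL library, and all 3 tested genes had negative fold changes. The part of these cells in the epcam value was not tested.

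**Figure D1:**
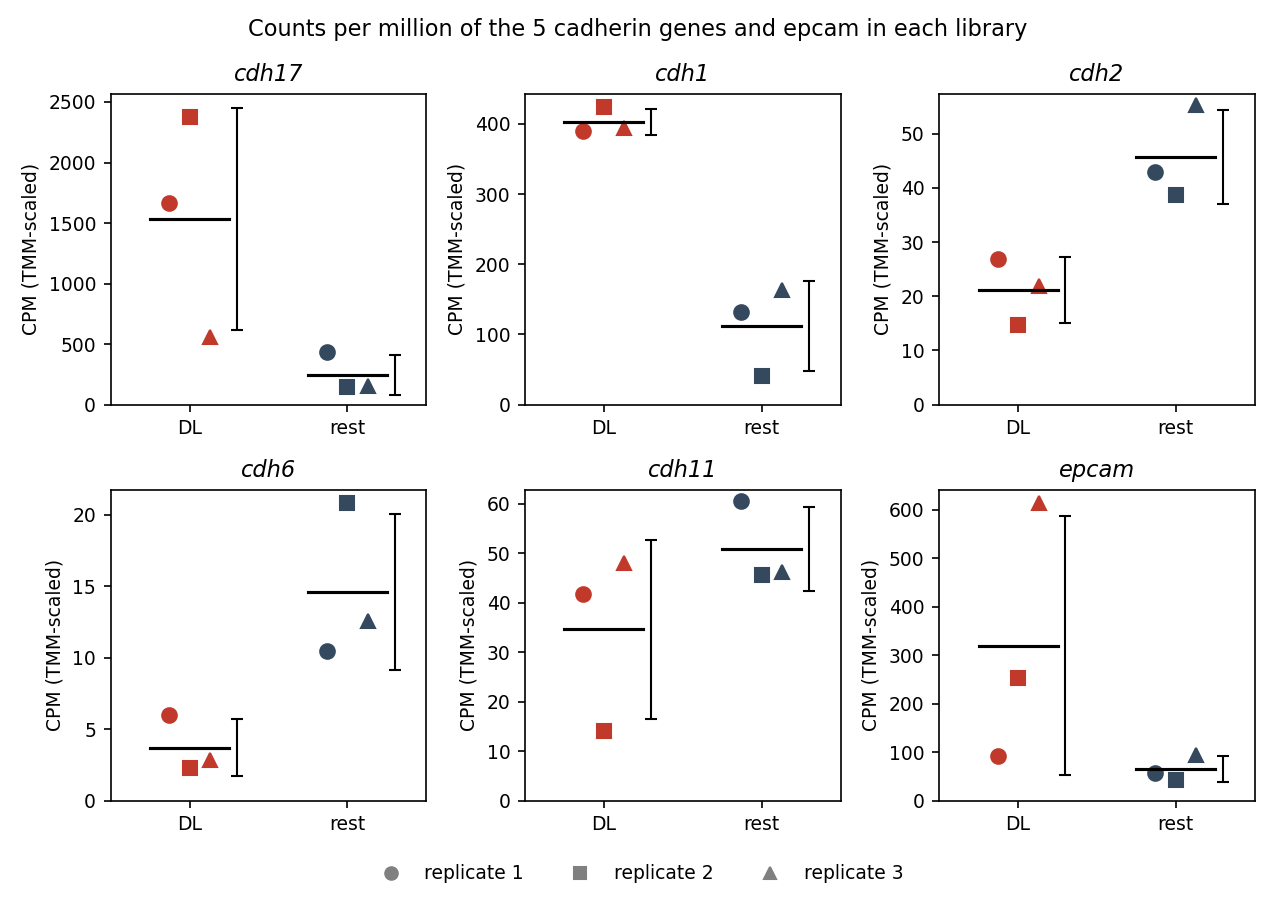
Level of each gene in each library, in CPM of the TMM-scaled library on linear axes that start at 0, with DL left of the rest. Symbols are replicates, horizontal lines are group means and bars are ± 1 SD (n = 3 each); cdh1 is nearly level at 390.2 to 424 CPM in DL, while among the DL libraries the one labelled replicate 3 is the lowest for cdh17 and the highest for epcam.

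The N-cadherin gene cdh2 and the K-cadherin gene cdh6 had all DL libraries below all rest libraries. For cdh2 the values were 27.0, 14.8 and 21.9 CPM in DL replicates 1 to 3, against 42.9, 38.7 and 55.4 CPM in rest replicates 1 to 3. Its log2 fold change was -1.11 ± 0.44 (edgeR adjusted p = 0.615; DESeq2 adjusted p = 0.35) and -1.10 ± 0.52 without the library labelled DL replicate 3 (edgeR adjusted p = 0.524). The spread of cdh2 was small for these data: only 2.97% of tested genes had a lower estimated dispersion.

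The gene cdh6 had the fewest counts of the 6, between 30 and 384 per library. It had 5.97, 2.27 and 2.84 CPM in DL replicates 1 to 3, against 10.5, 20.8 and 12.5 CPM in rest replicates 1 to 3. The highest DL library, DL replicate 1, lay below the lowest rest library, which was 1.75 times as high. The log2 fold change was -1.997 ± 0.65 (edgeR adjusted p = 0.432; DESeq2 adjusted p = 0.118), and -1.81 ± 0.76 without the library labelled DL replicate 3 (edgeR adjusted p = 0.473).

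The gene cdh11 did not separate the groups. Its values were 41.7, 14.1 and 48.04 CPM in DL replicates 1 to 3, against 60.5, 45.5 and 46.3 CPM in rest replicates 1 to 3. Only the library labelled DL replicate 3 lay within the rest range. DL replicate 1 lay just below that range and DL replicate 2 far below it. The log2 fold change was -0.56 ± 0.50 (edgeR adjusted p = 0.987). It was -0.17 without DL replicate 2 and -0.84 ± 0.57 without the library labelled DL replicate 3 (edgeR adjusted p = 0.716).

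Several markers of other cell types had negative fold changes, as cdh2, cdh6 and cdh11 did. Over all tested genes 9137 of 17083 were negative. All 12 stromal markers were negative, with a median log2 value of -0.93 against -0.07 over all tested genes. Their summed CPM was 2441, 318 and 1141 in DL replicates 1 to 3, against 1716, 1117 and 3494 in rest replicates 1 to 3. The groups thus overlapped. DL replicate 2, the lowest library for cdh2, cdh6 and cdh11, was also the lowest for stroma. Other libraries went the other way: DL replicate 1 lay above rest replicates 1 and 2 for stroma but below them for all of these cadherins. Rest replicate 2 had the least stroma of the rest but the highest cdh6, 20.8 CPM. Smooth muscle and pericyte markers summed to 607, 355 and 529.7 CPM in DL versus 972, 753 and 737 CPM in the rest, with 8 of 11 tested genes negative. For 11 tested proximal tubule genes, of which 10 were negative, the sum ranged from 677 to 773 CPM in DL and from 631 to 1336 CPM in the rest; aqp8b, another gene of that list, was at 0 in every library. All 7 podocyte genes were negative (259.7 to 421 CPM in DL, 393 to 650.3 CPM in the rest). Nephron progenitor markers were mixed. Of 7 tested genes 5 were negative, but the sum of the list was higher in DL. It was 129, 121 and 111 CPM in DL replicates 1 to 3, against 101, 61.3 and 33.0 CPM in rest replicates 1 to 3. The part of these cell types in the cadherin values was not tested.

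**Figure D2:**
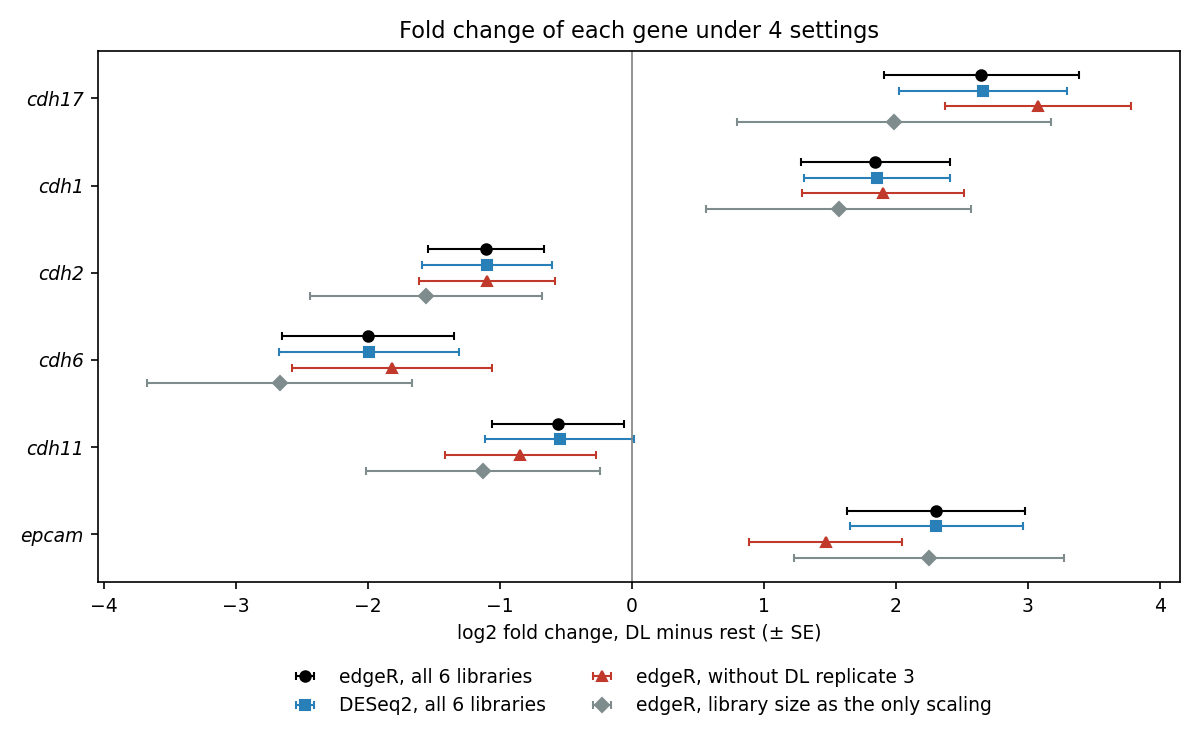
Log2 fold change of each gene, DL minus rest, with bars of ± 1 SE, in edgeR and DESeq2 with all 6 libraries, in edgeR without the library labelled DL replicate 3, and in edgeR with library size as the only scaling. Each gene keeps its sign in all 4 settings, and epcam moves nearest to 0 among the higher genes, to 1.47, without that library.

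The scaling bears on the separation of cdh17 and cdh1. As CPM of the plain total count, without TMM factors, cdh17 stood at 865, 2763 and 635 in DL replicates 1 to 3, against 777, 214 and 83.6 in rest replicates 1 to 3, and the groups overlapped. On the same scale cdh1 stood at 203, 493 and 448 in DL, against 236, 61.5 and 87.0 in the rest, also with overlap. Its DL values, nearly level with TMM scaling, were thus not level on this scale. The genes cdh2 and cdh6 still had every DL library below every rest library. The share of all tested genes that did so on this scale was not counted. This scaling moved the median log2 fold change of all tested genes to -0.50, and relative to that median cdh17 stood at 2.49, cdh1 at 2.07, epcam at 2.76, cdh2 at -1.05, cdh6 at -2.16 and cdh11 at -0.62.

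Ratios between member genes within a library are nearly free of the scaling. The log2 difference of cdh1 over cdh2 was 3.83, 4.80 and 4.14 in DL replicates 1 to 3, against 1.61, 0.08 and 1.55 in rest replicates 1 to 3. The groups did not overlap, with a mean difference of 3.18 between them. The p was the smallest that an exact two-sided permutation of 3 against 3 libraries can give (p = 0.1, adjusted over 3 pairs 0.3). Both outcomes were fixed beforehand, because in TMM-scaled CPM cdh1 stood higher and cdh2 lower in every DL library than in every rest library. They therefore add no support beyond the values of the single genes. For cdh17 over cdh1 the values were 2.09, 2.49 and 0.50 in DL, against 1.72, 1.79 and -0.06 in the rest, with a mean difference of 0.55 (exact permutation p = 0.5, adjusted 0.7). For cdh17 over epcam they were 4.16, 3.22 and -0.13 in DL, against 2.89, 1.74 and 0.73 in the rest, with a mean difference of 0.63 (exact permutation p = 0.7, adjusted 0.7). Replicate 3 of each group had the lowest ratio of cdh17 to both other genes, although the numbers do not pair libraries. The larger mean fold change of cdh17 than of cdh1 or epcam thus lay within the spread between libraries.

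**Figure D3:**
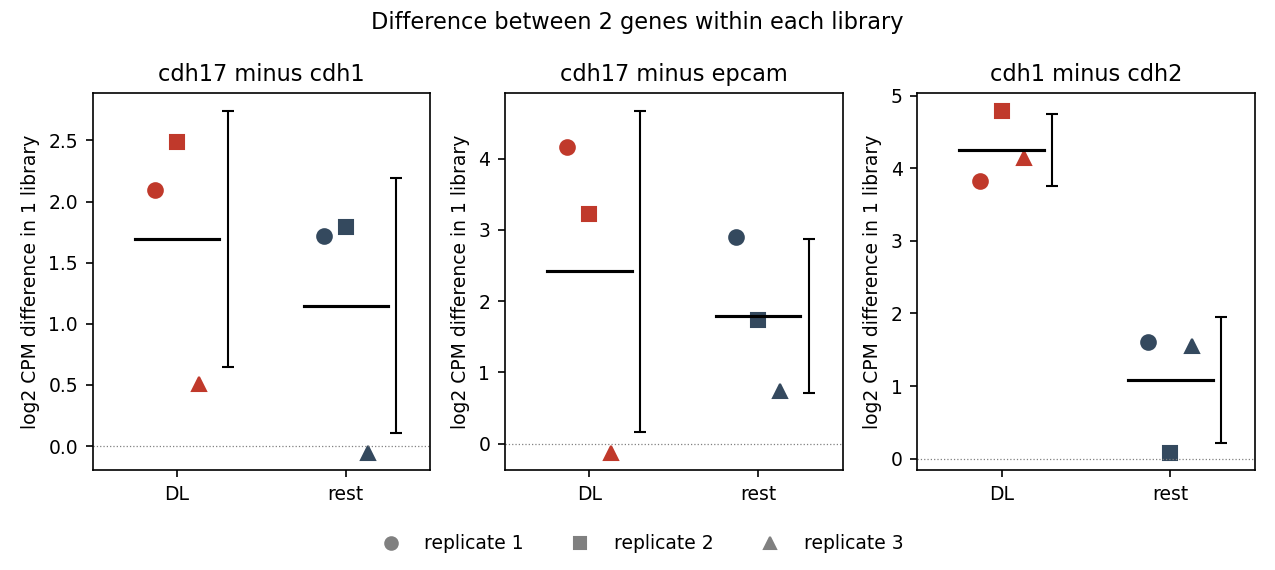
Difference in log2(CPM + 0.5) between 2 genes of the same library, with DL left of the rest, symbols for replicates, lines for means and bars for ± 1 SD (n = 3 each). The difference of cdh1 over cdh2 is 3.83 or more in DL and 1.61 or less in the rest, whereas both differences that involve cdh17 overlap between the groups.

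The 6 profiles over the libraries fell closest together within the higher and the lower set, as a description of the same 6 libraries. The root-mean-square distance on the log2 scale was 0.46 between cdh2 and cdh11 and 0.63 between cdh2 and cdh6, and it was 0.86 between cdh1 and epcam and 0.90 between cdh17 and cdh1. The pair cdh17 and epcam lay 1.48 apart, and pairs of a higher with a lower gene lay from 1.62 to 2.54 apart. Among 7284 other genes, the nearest to cdh17 were SFXN3, a mitochondrial serine carrier (0.22), SLC4A2_ENSDARG00000028173, an anion exchanger (0.24), and TFAP2A, a transcription factor (0.26), where the median distance was 1.62. SFXN3 had 66.6, 89.4 and 16.2 CPM in DL replicates 1 to 3, against 12.6, 4.06 and 4.07 CPM in rest replicates 1 to 3. TFAP2A stood at 66.3, 151 and 35.9 CPM in DL, against 22.8, 9.42 and 8.47 CPM in the rest.

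The genes nearest to cdh1 were ccdc125, lad1 and sytl1 (0.31 to 0.32, median 1.34). The gene nearest to epcam was ELF3, an epithelial transcription factor (0.30, median 1.44), at 119, 273 and 457 CPM in DL replicates 1 to 3, against 41.1, 43.2 and 88.8 CPM in rest replicates 1 to 3; PHLDA2 and arrdc1a followed. Nearest to cdh2 were FAM193B, flna and col6a4a, genes that include the actin crosslinker filamin A and a collagen VI chain (0.12 to 0.19, median 0.90). For cdh6 they were ADAMTS15_ENSDARG00000029124, EMILIN2 and FN1_ENSDARG00000019815, which code for proteins secreted into the matrix (0.30 to 0.37, median 1.30), and for cdh11 RIMKLA, eif1axa and RNF20 (0.15 to 0.20, median 0.93).

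Other cadherins held no gene that separated the groups. The table listed 25 further cadherin and cadherin-related genes, of which 13 passed the filter, with a median log2 fold change of -0.25 against -0.07 over all tested genes. Of these 13, 4 were positive and 9 negative, and by edgeR 0 were called, 0 had an unadjusted p under 0.05, and DESeq2 and limma-voom called 0. The median was -0.39 without the library labelled DL replicate 3, and there edgeR and DESeq2 called 0. The most abundant, cdh5 (VE-cadherin of vessel endothelium), had 46.5, 101 and 242 CPM in DL replicates 1 to 3, against 206, 113 and 144 CPM in rest replicates 1 to 3. The 10 endothelial markers summed to 248, 345 and 579 CPM in DL, against 511, 567 and 534 CPM in the rest. Their order was that of cdh5 among the DL libraries but the reverse of it among the rest libraries. The photoreceptor cadherin copy CDHR1_ENSDARG00000004643 stood at 12.3 ± 5.13 CPM in DL versus 4.05 ± 4.06 CPM in the rest (SD, n = 3 each), and CDHR1_ENSDARG00000104756 at 17.2 ± 9.29 and 13.5 ± 4.96 CPM. The R-cadherin gene cdh4 (log2 fold change -2.65 ± 1.90) and CDH7 (-1.74 ± 1.59) had few counts.

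One of them, cdh16, the kidney-specific cadherin of mammals, was picked out after its values were seen. It had 21.1, 0.11 and 69.9 CPM in DL replicates 1 to 3, against 59.7, 30.5 and 0.85 CPM in rest replicates 1 to 3. It was thus high and near 0 within both groups, with a log2 fold change of -0.01 ± 1.79 (edgeR adjusted p = 1), and -1.54 ± 2.22 without the library labelled DL replicate 3 (edgeR adjusted p = 0.928). Among the giant cadherins of the Fat, Dachsous and Flamingo families, 6 of 11 tested genes were positive (median 0.29) and 0 were called by edgeR, DESeq2 or limma-voom. At an unadjusted edgeR p under 0.05, 1 was higher and 1 lower, against 4.09% and 2.73% of all tested genes. Leaving out the library labelled DL replicate 3 gave a median of 0.16 and 0 calls by edgeR and DESeq2. The Flamingo gene CELSR1, of planar cell polarity, had a log2 fold change of 1.08 ± 0.44. It stood at 237, 165 and 129.9 CPM in DL, against 91.4, 75.1 and 84.2 CPM in the rest. In TMM-scaled CPM every DL library stood above every rest library for 1 of the 11, CELSR1, against 6.82% of all tested genes. Every DL library stood below for 2, FAT3_ENSDARG00000087709 and FAT4, against 6.28%. Relative to the plain total count CELSR1 and FAT4 overlapped between the groups. FAT3_ENSDARG00000087709 stood at 1.36 ± 0.74 CPM in DL versus 9.68 ± 5.49 CPM in the rest (log2 fold change -2.85 ± 0.87), and FAT3_ENSDARG00000033840 had -1.52 ± 0.74. The most abundant of the list, FAT1_ENSDARG00000017591, stood at 286 ± 125 CPM in DL versus 158 ± 52.2 CPM in the rest.

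Of 15 tested catenins and actin linkers, the inner partners of classical cadherins, 9 were positive (median 0.43). By edgeR, DESeq2 and limma-voom 0 were called. At an unadjusted edgeR p under 0.05, 3 were higher and 2 lower, against 4.09% and 2.73% of all tested genes. With the library labelled DL replicate 3 left out the median was 0.51 and edgeR called 0. In that setting DESeq2 called 1, CTNND1, as higher, where it called 1.68% of all genes higher. The delta-catenin gene ctnnd2b had 9.59, 17.7 and 8.70 CPM in DL replicates 1 to 3, against 1.64, 3.74 and 3.56 CPM in rest replicates 1 to 3 (log2 fold change 2.02 ± 0.68). CTNNAL1, an alpha-catenin relative, had a log2 fold change of 1.86 ± 0.67, and ARVCF_ENSDARG00000061688, a relative of p120 catenin, one of -1.34 ± 0.48. The vinculin copy VCL_ENSDARG00000044968 had -2.55 ± 1.08 at low counts. The more abundant copy VCL_ENSDARG00000098695, named only as its second copy, had -0.41 ± 0.64 with overlapping groups. The abundant gamma-catenin gene JUP_ENSDARG00000070787 stood at 142 ± 13.5 CPM in DL versus 80.1 ± 57.1 CPM in the rest. Its second copy JUP_ENSDARG00000059067, named only for that reason, had the opposite sign at low counts (-1.43 ± 1.51). The core catenins, picked after their values were seen for their role, overlapped between the groups for CTNNB1 (beta-catenin, 0.51 ± 0.50) and ctnna1 (alpha-catenin, 0.43 ± 0.44). CTNND1 (p120 catenin), which stabilises cadherins at the membrane, had every DL library higher, at 219, 144 and 85.5 CPM in DL versus 67.4, 49.8 and 64.0 CPM in the rest (log2 fold change 1.31 ± 0.47). Relative to the plain total count, however, DL replicate 1 lay below rest replicate 1 for CTNND1. Its fold change without the library labelled DL replicate 3 was 1.62 ± 0.48 in edgeR (adjusted p = 0.311) and 1.61 ± 0.47 in DESeq2 (adjusted p = 0.0240).

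Desmosome genes, which code for the other cadherin-based junction of epithelia, were positive for 11 of 13 tested members (median 0.68). Over all tested genes 7946 of 17083 were positive. Of the list, 0 were called by edgeR, DESeq2 or limma-voom. At an unadjusted edgeR p under 0.05, 2 were higher, against 4.09% of all tested genes. Scaled by library size alone the median of the list was 0.09, and that of all tested genes was -0.50. In the fits without the library labelled DL replicate 3 the median was 0.44 and edgeR called 0. There DESeq2 called 1, PKP1, as lower, where it called 2.16% of all genes lower. The plakophilin gene pkp3a had 128, 42.6 and 46.1 CPM in DL replicates 1 to 3, against 36.3, 4.44 and 10.7 CPM in rest replicates 1 to 3 (log2 fold change 2.07 ± 0.74). The desmoglein gene dsg2.1, a desmosomal cadherin, had 1.46 ± 0.61 with overlapping groups. The most abundant member, the desmoplakin copy DSP_ENSDARG00000022309, stood at 163 ± 28.9 CPM in DL versus 125 ± 68.2 CPM in the rest. The 2 negative members each varied widely within a group. The envoplakin gene evpla had 52, 0 and 89 counts in DL replicates 1 to 3, against 847, 2 and 5 counts in rest replicates 1 to 3, so 1 rest library held most of its counts (log2 fold change -0.80 ± 1.97). The plakophilin gene PKP1 had 0, 0 and 52 counts in DL, against 42, 21 and 29 counts in the rest (-0.56 ± 1.79), so its call without the library labelled DL replicate 3 (DESeq2 adjusted p = 0.0200; edgeR adjusted p = 0.374) sets libraries with no counts against low ones.

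The list built around EpCAM held surface partners of the protein and the matriptase protease with its inhibitors. In it 8 of 9 tested genes were positive, with a median log2 fold change of 2.20. Over all tested genes 7946 of 17083 were positive. By edgeR 0 of the 9 were called, and 6 reached an unadjusted p under 0.05, all in the positive direction, against 4.09% of all tested genes. DESeq2 called 4 higher, spint2, cd9b, spint1a and cldn7b, where it called 1.22% of all genes higher. The limma-voom fit called 1, cd9b, where it called 0.211% of all genes higher. Without the library labelled DL replicate 3 edgeR called 1, spint2 (log2 fold change 3.14, adjusted p = 0.0439), and 0.275% of all genes higher. In that setting DESeq2 called the same 4 genes as with all libraries, and 1.68% of all genes higher. The median was again 2.20 in edgeR. With no low-count filter edgeR called 3, spint2 (adjusted p = 0.0102), cd9b (adjusted p = 0.0156) and cldn7b (adjusted p = 0.0395), where it called 0.381% of 25974 genes higher and 0.027% lower. In TMM-scaled CPM every DL library stood above every rest library for 6 of the 9, against 6.82% of all tested genes. Relative to the plain total count, spint2, cd9b and spint1b kept that separation. For spint1a, cldn7b and st14a, DL replicate 1 then lay below rest replicate 1. The share of all tested genes on that scale was not counted. Its claudin member cldn7b was known to differ when the list was made, so the list is not independent evidence of a direction. The inhibitor gene spint2 had 158, 117 and 50.5 CPM in DL replicates 1 to 3, against 22.6, 11.4 and 13.6 CPM in rest replicates 1 to 3 (log2 fold change 2.77 ± 0.54, edgeR adjusted p = 0.103, DESeq2 adjusted p = 0.000286).

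The tetraspanin gene cd9b, which codes for an organiser of membrane complexes, had 143, 136 and 126 CPM in DL replicates 1 to 3, against 37.9, 15.1 and 12.0 CPM in rest replicates 1 to 3. In TMM-scaled CPM it shared with cdh1 a narrow range among the DL libraries, and its log2 fold change was 2.63 ± 0.53 (edgeR adjusted p = 0.11, DESeq2 adjusted p = 0.000372). For cldn7b, the claudin that binds EpCAM in mammals, named for that role after its values were seen, the values were 74.6, 116 and 181 CPM in DL, against 34.7, 11.6 and 28.1 CPM in the rest. Its DL libraries had the same order as those of epcam, but its rest libraries did not. Most of the list did not share that DL order. The genes spint2, cd9b, spint1b, st14a and st14b fell from DL replicate 1 to 3, while cldn7a rose. The second copy cldn7a had the opposite sign, at 3.07 ± 2.75 CPM in DL versus 9.44 ± 5.46 CPM in the rest (log2 fold change -1.62 ± 0.83).

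Factors of the snail, zeb and twist families, known in mammals as repressors of the E-cadherin gene, had negative fold changes for 7 of 8 tested genes (median -0.95). Over all tested genes 9137 of 17083 were negative. By edgeR 0 of the 8 were called and 0 had an unadjusted p under 0.05, and DESeq2 and limma-voom called 0. Without the library labelled DL replicate 3 the median was -1.23 and edgeR called 0. DESeq2 called 2.16% of all genes lower there, and 1 gene of the list, snai2. That gene, a snail repressor, had 0.14, 0.38 and 8.61 CPM in DL replicates 1 to 3, against 3.32, 11.3 and 2.71 CPM in rest replicates 1 to 3, and DL replicates 1 and 2 held 1 and 10 counts. Its log2 fold change was -0.93 ± 1.27 with all libraries; without the library labelled DL replicate 3 it was -4.32 ± 1.40 in edgeR (adjusted p = 0.361) and -4.35 ± 1.21 in DESeq2 (adjusted p = 0.0159). The gene zeb1a had 5.14, 10.1 and 8.23 CPM in DL replicates 1 to 3, against 12.1, 17.4 and 21.5 CPM in rest replicates 1 to 3 (log2 fold change -1.11 ± 0.54). Its other copy, listed as ZEB1, stood at 16.3, 11.8 and 35.7 CPM in DL, against 41.1, 44.9 and 37.4 CPM in the rest (-0.96 ± 0.50). In TMM-scaled CPM both had every DL library below every rest library, as 6.28% of all tested genes did. Relative to the plain total count the groups overlapped for both. The abundant zeb2a stood at 39.1 ± 17.4 CPM in DL versus 67.1 ± 21.7 CPM in the rest, with overlap, and snai1a, the 1 positive gene, at 2.73 ± 3.63 and 1.94 ± 2.11 CPM. Blood and stromal cells also express zeb factors. All 5 neutrophil markers had negative fold changes and summed to 16.8 to 372 CPM in DL, against 53.3 to 1453 CPM in the rest; 8 of 11 tested macrophage markers were negative, and the list summed to 38.5 to 176 CPM in DL, against 93.1 to 297 CPM in the rest. The part of these cells in the zeb values was not tested.

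**Figure D4:**
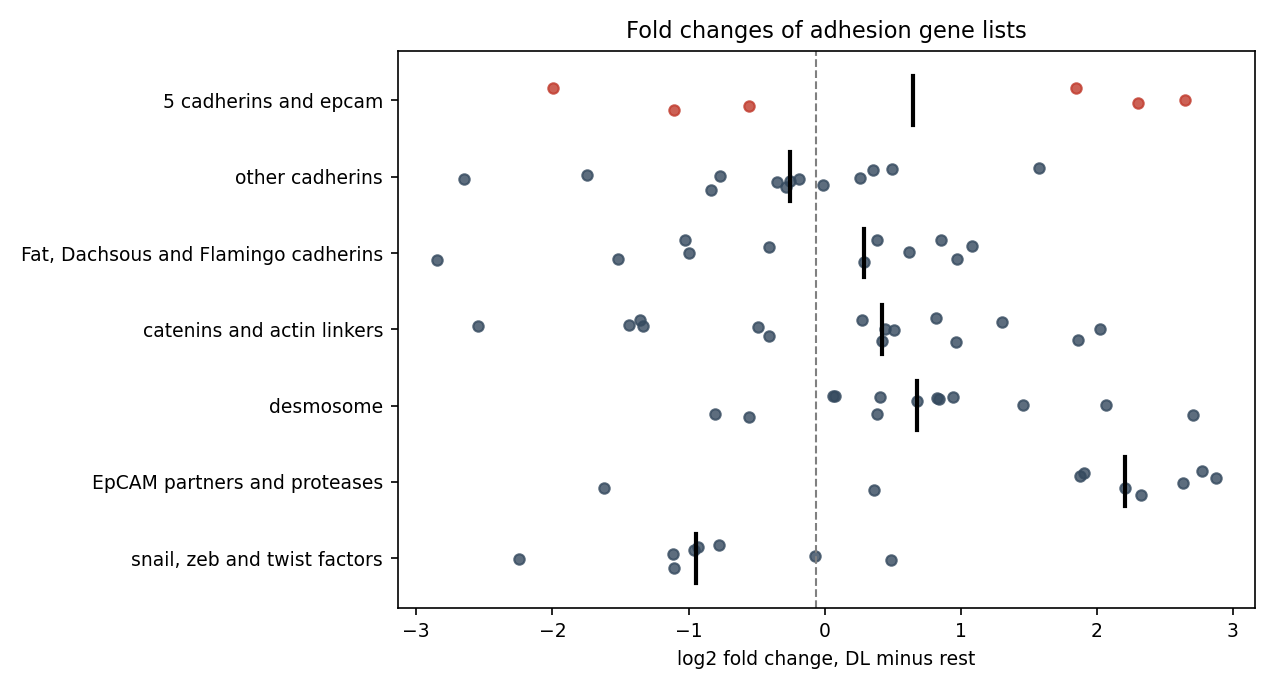
Log2 fold change, DL minus rest, of each tested gene of the 6 members and of the adhesion lists; black bars are list medians and the dashed line is the median of all tested genes, -0.07. The EpCAM list has the highest median, 2.20, and the snail, zeb and twist list the lowest, -0.95, while the members lie on both sides.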

How the data were processed

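RNA was measured in 6 libraries of 1 deposited table. The authors deposited estimated counts per Ensembl gene, of which 29.8% are fractional; the estimated counts, as deposited, carry no normalization, and their aligner, counting tool and build are not stated. Gene symbols, in part in capitals, were found for 26121 of 31953 genes. The member genes and lists were chosen with earlier results of these data known.

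Counts were rounded, filtered with filterByExpr (17083 genes left), scaled by TMM and tested with edgeR 4.0.16 in R 4.3.3 (quasi-likelihood F test, robust dispersions, Benjamini-Hochberg adjustment over all tested genes at 0.05). The SE of a log2 fold change is its size divided by the root of F. CPM are relative to TMM-scaled library sizes. Differences between 2 genes within a library used log2(CPM + 0.5) and an exact permutation test. Likeness between genes was the root-mean-square distance of mean-centred log2 CPM (prior count 2) over the 6 libraries, among genes with a mean log2 CPM of at least 3.

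All rows of the member genes were named. From each adhesion list the 2 members with the smallest p per direction and the most abundant one were named, and others are marked. Alternatives were DESeq2 1.42.0, limma-voom (limma 3.58.1) with sample quality weights, other scalings and filters, the 20 most abundant genes left out, and each library left out. DESeq2 without DL replicate 3 and, for the gene lists, the filters and the abundant genes were added after the data were seen. Replicate numbers follow accession order and pair no libraries. The test was checked on simulated data, in which 200 of 17083 genes were changed. It recovered 8 of 50 genes changed 4-fold and 37 of 50 changed 8-fold, and it called 8 unchanged genes. At fold changes near 4, a missing call is therefore weak evidence of no change. No strand setting is stated, so overlapping and antisense genes are uncertain. Total counts per library, given as a range in the Results, set the counting precision, and the spread between libraries exceeds it for the 6 members.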

Additional observations from a re-analysis of the deposited data

How the results depend on the processing

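Each of the 6 member genes kept the sign of its fold change in all 16 alternatives. The log2 fold change ranged from 1.98 to 3.37 for cdh17, 1.46 to 2.25 for cdh1, 1.45 to 3.12 for epcam, -1.56 to -0.89 for cdh2, -2.66 to -1.64 for cdh6 and -1.13 to -0.17 for cdh11. Past the threshold were cdh17 (2.66), cdh1 (1.86) and epcam (2.31) in DESeq2, which makes 3 members called, and in DESeq2 without DL replicate 3, chosen after seeing the data, cdh17 alone (3.07), which makes 1. Over all alternatives the adjusted p ranged from 0.000171 to 0.999 for cdh17, 0.0478 to 0.999 for cdh1 and 0.0326 to 0.999 for epcam. With 1 library left out, edgeR called 0 members in each case; the fold change then ranged from 2.19 to 3.37 for cdh17, 1.46 to 2.24 for cdh1 and 1.47 to 2.79 for epcam.

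The number of genes called over the whole table was 11 with edgeR, against 314 with DESeq2, 36 with limma-voom, 1 when scaled by library size alone, 106 with no low-count filter, 702 with DESeq2 without DL replicate 3, and 0 with DL replicate 1 and rest replicate 3 both left out. With 1 library left out it ranged from 0 to 53, with 53 without DL replicate 3 and 0 in the other 5 cases. In the EpCAM list DESeq2 called 4 genes with all libraries and 4 without DL replicate 3, limma-voom called 1 and edgeR with no low-count filter 3, leaving out 1 library gave 0 to 1, and scaling by library size alone gave a median of 1.63. DESeq2 without DL replicate 3 called 1 gene in each of the catenin list, the desmosome list and the snail, zeb and twist list. Over all genes that fit called 1.68% higher and 2.16% lower. For the lists, that fit, both filters and leaving out the 20 most abundant genes were chosen after seeing the data. The median of the other cadherins was -0.90 with limma-voom. The cause was not tested. The difference of cdh17 over cdh1 between the groups ranged from -0.06 to 1.14 and that of cdh17 over epcam from -0.24 to 1.90 with 1 library left out, so their sign depends on single libraries (it is negative without rest replicate 3 for cdh1 and without DL replicate 1 for epcam), while that of cdh1 over cdh2 ranged from 2.67 to 3.44. No paired analysis was possible because the labels give no replicate numbers: those used here follow accession order, and no label ties a DL library to a rest library.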

Other observations

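In RefSeq's gene order (assembly GRCz12tu, used for neighbours only), cdh17 lies between gem and pdp1. For both neighbours the DL libraries all exceeded the rest libraries, as they did for 6.82% of all tested genes, and edgeR called neither. The small GTPase gene gem stood at 16.9 ± 12.1 CPM in DL versus 1.43 ± 0.0852 CPM in the rest (SD, n = 3 each), a log2 fold change of 3.55 ± 0.81 (edgeR adjusted p = 0.178). The gene pdp1, a phosphatase that activates pyruvate dehydrogenase, stood at 11.3 ± 3.43 CPM in DL versus 3.18 ± 2.13 CPM in the rest (1.86 ± 0.72, adjusted p = 0.588). The tested neighbours of cdh2 (c1ql1 and aqp4), of cdh11 (cdh5) and of epcam (si:ch73-105b23.6 and plekhh2) overlapped between the groups.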
